A study of Homo sapiens with 6 samples.

Results

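Transcripts of 7 genes were examined: DEK, TAF10, GTF2I, TIA1, TIAL1, EIF5B and NOP56. Their proteins, which work in the nucleus or bind RNA, have been linked to polyphosphate by modification or by a change of place in the cell. They were chosen by gene symbol for that link, which is a statement about proteins and was not checked against a source here. The rule used no measured transcript level, but earlier results of these data were known when the members were chosen. Each symbol matched 1 row, so the set holds 7 of the 58051 genes in the count table. The question was whether the transcripts of these genes differ when long-chain polyphosphate is made inside the cell. The cells were HEK293T, an established human line derived from embryonic kidney and expressing the SV40 T antigen. The control group was transiently transfected with the empty vector pcDNA3.1-. In the other group the plasmid was pcDNA3.1-ppk1, which encodes a polyphosphate kinase of bacteria. All cells were harvested 48 hours after transfection. There were 3 libraries per group. Libraries that share a letter (B, C or D) are matched biological replicates. Transfection was transient, and the share of cells that took up the plasmid is not given in the sources used here, so a value is an average over transfected and other cells.

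Polyphosphate is a chain of phosphate groups. In bacteria it is built by polyphosphate kinase from ATP. In eukaryotic cells such chains can become attached, without an enzyme, to lysines of some proteins, mostly within stretches rich in acidic residues, serine and lysine. Such an attachment acts on a protein that has already been made, so it can occur with or without a change in the transcript that encodes the protein. DEK is a chromatin protein that binds DNA and histones. TAF10 is a subunit of TFIID, the factor that recruits RNA polymerase II to promoters, and of the coactivator complex SAGA. GTF2I encodes TFII-I, a transcription factor with repeated DNA-binding domains. TIA1 and TIAL1 are closely related RNA-binding proteins that bind U-rich sequences, affect splicing and translation, and enter stress granules. EIF5B is the GTPase that joins the ribosomal subunits at the start of translation. NOP56 is a core protein of the box C/D ribonucleoproteins, which guide methylation of ribosomal RNA.

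Total counts per library ran from 40851783 to 67122986, and in every pair ppk1 had the higher total. Of these counts, 3.99% to 4.17% with the empty vector and 4.78% to 5.72% with ppk1 fell on mitochondrially encoded genes, and without those genes EIF5B, for example, had the same log2 fold change (0.17). Levels are given as CPM, counts relative to a library total that TMM factors correct for differences in composition. EGR1, an immediate-early transcription factor gene, was at 13.1 ± 1.96 CPM in the empty vector libraries and at 29.7 ± 1.23 CPM in the ppk1 libraries (mean ± SD, n = 3). Of 8 genes typical of HEK293 cells, all 8 were tested. Among them, INA and KRT18 were higher with ppk1 and NEFL was lower. Their summed level ran from 799.9 to 926 CPM in the empty vector libraries and from 784.6 to 825.7 CPM in the ppk1 libraries. Most of this sum was VIM, with means of 508.5 CPM (empty vector) and 492.2 CPM (ppk1). PAX2 was at means of 3.00 and 3.14 CPM, and LHX1 at 4.25 and 4.55 CPM. Of 10 markers of other cell types, 4 passed the filter on low counts. CDH5, COL1A2, KRT5 and UMOD had at most 2 counts in any library. The summed level of the 10 was 17.5 to 22.1 CPM and 20.6 to 21.5 CPM, nearly all of it COL1A1. ALB, at 34 counts or fewer in each library, was the 1 marker of these that was called, and was lower with ppk1.

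None of the 7 transcripts passed the test between the groups. Libraries were compared with the quasi-likelihood test of edgeR, blocked by replicate letter, and a gene was called at a Benjamini-Hochberg adjusted p below 0.05. Of the 7 members 0 were called, against 9.08% of the 19574 genes tested (4.04% higher with ppk1 and 5.04% lower). At an unadjusted p below 0.05 there was 1, EIF5B. By p-value it ranked 3635 among the 19574 tested genes, so many genes lay below 0.05 before adjustment. The share of all tested genes at that unadjusted p is not given here. Counts at it, for members or partners, therefore have no background beside them. DESeq2 with the same block also called 0 members, again with 1 at an unadjusted p below 0.05, and 4.40% of its genes. Without the block 0 members and 2.40% of genes were called. Leaving out pair B, C or D gave 0 members each time, beside 12.5%, 2.06% and 9.06% of genes. All 7 passed the filter on low counts with room to spare, since the lowest count of any member in any library was 2171. The fitted differences ran from a log2 fold change of -0.05 for TIA1 to 0.17 for EIF5B. The median of the 7 was 0.08, beside 0.01 over all tested genes and 0.05 over those in the members' range of abundance. All 95% intervals lay between -12.8% and +24.4% of the empty vector level. Of the 4469 tested genes with a mean between 53.8 and 443.6 CPM, the range of the members, 7.65% were called, and the smallest called difference among them was 0.22 on the log2 scale.

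**Figure D1:**
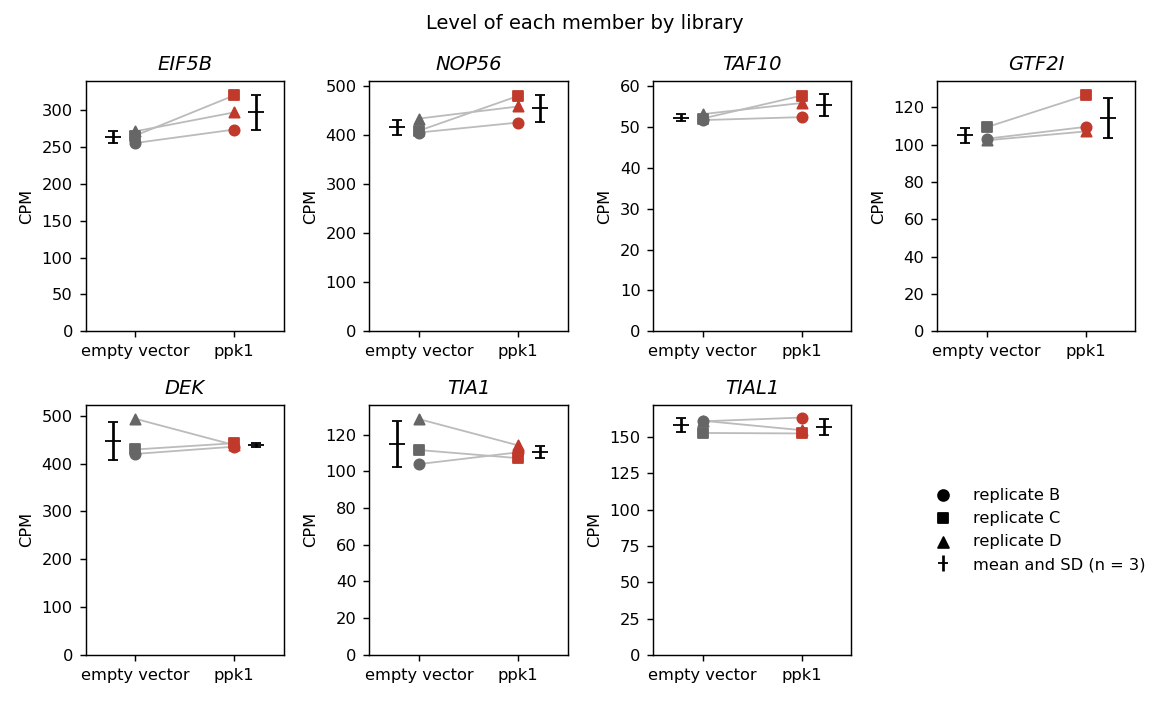
Level in CPM (linear axis from 0) of each of the 7 genes in the 3 empty vector and the 3 ppk1 libraries. Lines join libraries of the same replicate letter, and the black marks give the mean and SD (n = 3). EIF5B is the 1 panel in which all ppk1 libraries lie above all empty vector libraries, and in the panels for DEK and TIA1 empty vector library D is the highest point.

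The translation factor and the snoRNP protein had the largest values. EIF5B (ENSG00000158417, chromosome 2) was at 255.4, 265.4 and 271.3 CPM in empty vector libraries B, C and D and at 273.8, 320.2 and 297.1 CPM in the ppk1 libraries. The groups did not overlap, with all 3 ppk1 libraries above all 3 empty vector libraries, which was also the case for 13.0% of all tested genes and for 20.5% of those in the members' range of abundance. The gap between the groups was small, since empty vector library D and ppk1 library B lay close together. Its log2 fold change was 0.17 (SE 0.07), a level 12.3% higher (95% interval 1.32% to 24.4%), and edgeR's adjusted p was 0.15 (0.028 before adjustment). It was higher with ppk1 in 3 of 3 pairs, by 0.10, 0.27 and 0.13 on the log2 scale. EIF5B was called in 1 of the alternative fits, the one with GC and transcript length offsets, where the log2 fold change was 0.23 (edgeR adjusted p 0.0049). Without replicate C it was 0.12, with an adjusted p of 0.84. REV1, which overlaps EIF5B on the opposite strand in GENCODE release 29, was at 48.7 ± 1.35 and 48.6 ± 0.66 CPM (mean ± SD, n = 3).

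NOP56 (ENSG00000101361, chromosome 20) was at 405.2, 408.8 and 433.7 CPM in empty vector libraries B, C and D and at 425.6, 479.8 and 458.4 CPM in the ppk1 libraries. Library D of the empty vector lay above ppk1 library B, so the groups overlapped. Its log2 fold change was 0.13 (SE 0.07, 95% interval -0.02 to 0.28), and edgeR's adjusted p was 0.31. The difference was positive in 3 of 3 pairs (0.07, 0.23 and 0.08), with the largest value in pair C, and it was 0.08 without that pair. In GENCODE release 29 the small nucleolar RNA genes SNORA51, SNORD110, SNORD56, SNORD57 and SNORD86 and the microRNA gene MIR1292 overlap exons of NOP56 transcripts on the same strand. The libraries were made from poly(A)-selected RNA, and the part of these genes in the counts was not tested.

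TAF10 (ENSG00000166337, chromosome 11) was the least counted member. It was at 51.7, 52.1 and 53.1 CPM in empty vector libraries B, C and D and at 52.4, 57.7 and 55.9 CPM in the ppk1 libraries. The groups overlapped through ppk1 library B, which lay within the empty vector range. The log2 fold change was 0.08 (SE 0.08, 95% interval -0.07 to 0.23), and edgeR's adjusted p was 0.56. TAF10 was higher with ppk1 in 3 of 3 pairs (0.02, 0.15 and 0.07 on the log2 scale). It shares 12.6% of its 50-base stretches with transcripts of other genes and overlaps ILK on the opposite strand. ILK was at 58.0 ± 0.93 and 60.6 ± 1.83 CPM (mean ± SD, n = 3), so the value of TAF10 is uncertain if the counting ignored the strand.

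GTF2I (ENSG00000263001, chromosome 7) was at 103.2, 109.4 and 102.3 CPM in empty vector libraries B, C and D and at 109.5, 126.5 and 107.1 CPM in the ppk1 libraries. Empty vector library C lay above ppk1 library D, and ppk1 library C stood highest. The log2 fold change was 0.12 (SE 0.07, 95% interval -0.03 to 0.27), and edgeR's adjusted p was 0.33. The pair values were 0.09, 0.21 and 0.07. EIF5B, NOP56, TAF10 and GTF2I were thus the 4 members with the same sign in all 3 pairs, all positive. Among all tested genes, 22.6% were higher in all 3 pairs and 43.8% had the same sign in all 3. Of genes in the members' range of abundance, 45.0% had the same sign in all 3 pairs and 66.4% had a positive difference. The share of those higher in all 3 pairs is not given here.

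**Figure D2:**
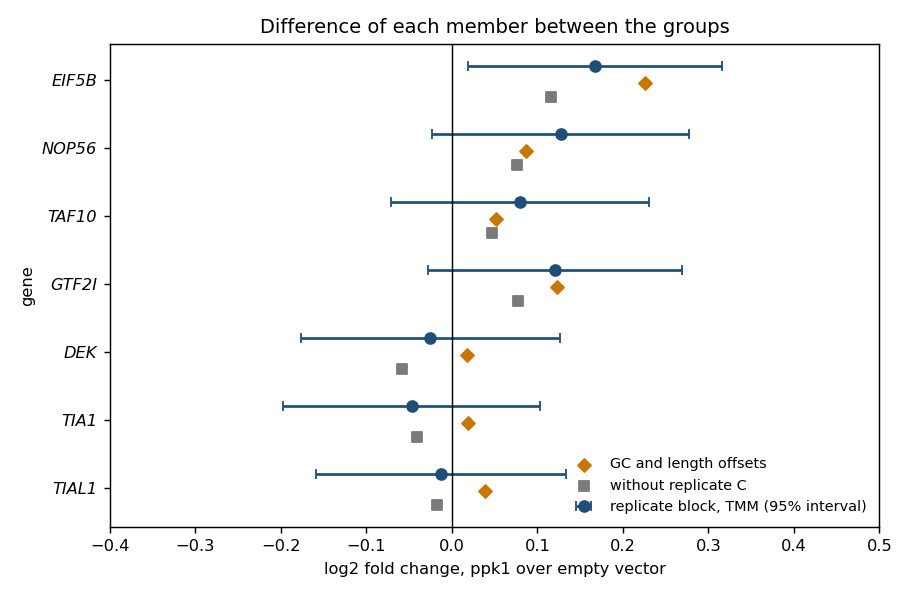
Log2 fold change of each gene, ppk1 over empty vector. Circles with bars are the estimate and its 95% interval with the replicate block and TMM scaling; diamonds are the estimates with GC and transcript length offsets and squares those without replicate C. The interval of EIF5B is the 1 that does not include 0, and the estimates of DEK, TIA1 and TIAL1 lie on the other side of 0 with the offsets.

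The counts of GTF2I are uncertain because near-identical copies of it also lie on chromosome 7. Of its transcript sequence in GENCODE release 29, 63.9% of the 50-base stretches also occur in transcripts of other genes, chiefly the pseudogenes GTF2IP1 and GTF2IP4. Over the coding sequence of 2994 bases, 61.1% of the 50-base stretches occur in GTF2IP1, and the longest identical run is 1276 bases. A stretch of 60 coding bases of GTF2I, beginning at base 1141 of the coding sequence, shows how little can separate them. It is printed beside its match in GTF2IP1 from the GENCODE 29 transcripts, with the differing base in capitals (C31T, GTF2I first, counted from 1 at the 5′ end of the stretch). A read that covers that base can tell the genes apart. One that lies wholly within an identical run, such as the longest, fits both genes.
GTF2I: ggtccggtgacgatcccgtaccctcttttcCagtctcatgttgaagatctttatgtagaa
GTF2IP1: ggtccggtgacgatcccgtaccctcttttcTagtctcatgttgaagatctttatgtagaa

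The table holds 16 genes named as GTF2I pseudogenes, of which 10 were tested and 4 had no count in any library. With edgeR, 0 of the 10 were called (GTF2IP14 had an unadjusted p below 0.05). GTF2IP4 was at 15.9, 15.7 and 14.8 CPM in empty vector libraries B, C and D and at 14.8, 16.02 and 14.8 CPM in the ppk1 libraries. GTF2IP1 was at 4.47, 4.36 and 3.97 CPM and at 4.36, 5.36 and 4.14 CPM. Together these copies carried between 16.9% and 19.8% as many counts as GTF2I, and the groups overlapped for each of them. When their counts were added to those of GTF2I, the log2 fold change was 0.10 (edgeR adjusted p 0.42). The most counted gene of the name, GTF2IP20 (51.4 ± 5.76 and 50.1 ± 2.92 CPM, mean ± SD, n = 3), as well as GTF2IP13 and GTF2IP12, shared no more than 5% of their sequence with GTF2I. Adding all 16 gave 0.05 (adjusted p 0.75), so the positive value of GTF2I became smaller with the wider sum. The tested copies GTF2IP23, GTF2IP5, GTF2IP9 and GTF2IP7 had means below 2 CPM in both groups. GTF2IP14 was at 1.83 ± 0.23 and 1.39 ± 0.17 CPM, a log2 fold change of -0.40 (adjusted p 0.15).

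**Figure D3:**
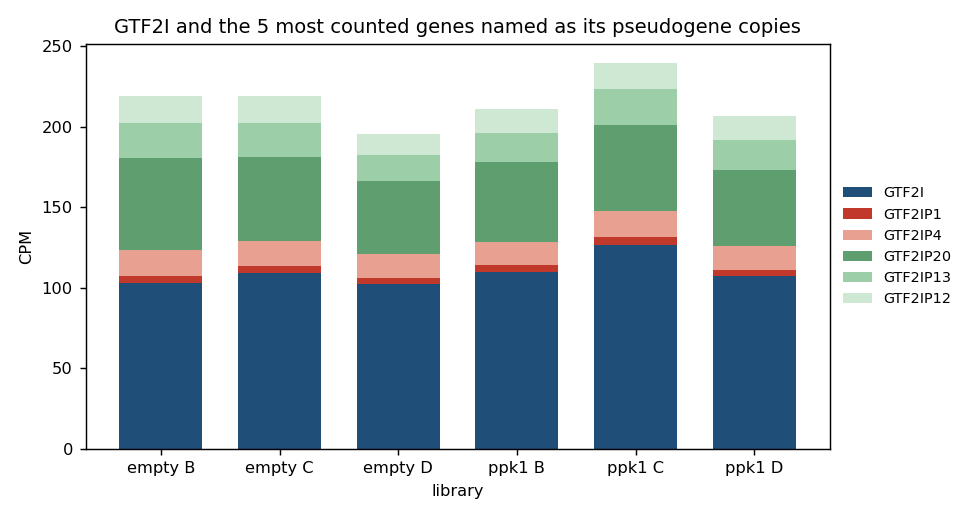
CPM of GTF2I and of the 5 most counted genes named as its pseudogenes, stacked for each of the 6 libraries. GTF2IP1 and GTF2IP4, which share most of their sequence with GTF2I, form the thin red bands, and ppk1 library C has the tallest GTF2I segment (126.5 CPM).

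The remaining members, the chromatin protein DEK and the 2 RNA-binding proteins, had values near 0. DEK (ENSG00000124795, chromosome 6) was at 420.4, 429.7 and 494.1 CPM in empty vector libraries B, C and D. In the ppk1 libraries it was at 435.7, 442.8 and 439.0 CPM, all within the empty vector range. The log2 fold change was -0.03 (SE 0.08, 95% interval -0.18 to 0.13), and edgeR's adjusted p was 0.88. The pair values were 0.05, 0.04 and -0.17, so the negative sign came from pair D, and without that pair the log2 fold change was 0.03.

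TIA1 (ENSG00000116001, chromosome 2) had a similar profile. It was at 103.9, 111.6 and 128.4 CPM in empty vector libraries B, C and D and at 110.3, 107.2 and 114.1 CPM in the ppk1 libraries. As for DEK, empty vector library D was the highest of the 6, and the ppk1 libraries lay within the empty vector range. Its log2 fold change was -0.05 (SE 0.07, 95% interval -0.20 to 0.10), and edgeR's adjusted p was 0.75. Pair B gave 0.09, pair C -0.06 and pair D -0.17. C2orf42, which overlaps TIA1 on the same strand, was at 8.88 ± 0.48 and 9.64 ± 0.15 CPM (mean ± SD, n = 3).

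TIAL1 (ENSG00000151923, chromosome 10) was the steadiest member. It was at 160.9, 152.9 and 161.3 CPM in empty vector libraries B, C and D and at 163.5, 152.5 and 154.8 CPM in the ppk1 libraries. The ranges were nearly the same, and the lowest and the highest value both fell in the ppk1 group. The log2 fold change was -0.01 (SE 0.07, 95% interval -0.16 to 0.13), and edgeR's adjusted p was 0.94. The absolute difference was larger for TIAL1 than for 5.42% of tested genes, for DEK than for 10.4% and for EIF5B than for 59.98%. The signs of DEK, TIA1 and TIAL1 turned with GC and transcript length offsets, to 0.02, 0.02 and 0.04. Transcripts of these genes are poor in G and C. The longest transcript held 40.4% GC for DEK, 36.6% for TIA1, 39.3% for TIAL1 and 38.6% for EIF5B, against a median of 48.5% over tested genes and 50.9% for NOP56 and 50.4% for TAF10. The part of GC content in the differences was not tested beyond these offsets.

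Divided by the length of the exons in GENCODE release 29, the levels (CPM per kilobase) fell in the order DEK, NOP56, EIF5B, TIAL1, TIA1, GTF2I and TAF10. DEK ran from 96.4 to 113.3 over the 6 libraries and NOP56 from 75.1 to 88.9. EIF5B ran from 32.4 to 40.6. TIAL1 ran from 20.7 to 22.2, above its relative TIA1 at 15.7 to 19.4. GTF2I ran from 9.80 to 12.1 and TAF10 from 8.47 to 9.45. No range overlapped that of its neighbour in this order. The ranges of GTF2I and TAF10 lay closest together. The order rests on the exon models, and for GTF2I on how shared reads were counted. Each length joins the exons of all annotated transcripts (6.10 kb for TAF10), and the order by the length of a single transcript was not tested.

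Over the 6 libraries, 6 of the 7 members showed 1 of 2 kinds of profile, chosen here after seeing them. The log2 CPM of TAF10, EIF5B and NOP56 correlated with each other at Pearson r of 0.977 to 0.982, and GTF2I with them at 0.691 to 0.809. In these genes ppk1 library C was the highest. DEK and TIA1 correlated at 0.922 and shared the high value in empty vector library D, while TIA1 and its relative TIAL1 correlated at 0.206. These are descriptions over n = 6 libraries that share group, pair and depth. Compared with 11825 other genes (mean count 200 or more), the profiles most like each member were those of PSMC3 and COPRS for EIF5B (r = 0.997 and 0.996) and of FAM58A and SNRPB for NOP56 (0.995 and 0.994). They were FAM21A and GNAI2 for TAF10 (0.997 and 0.993), RBBP5 and RRP1B for GTF2I (0.997 and 0.991), SASS6 and NIF3L1 for DEK (0.994 and 0.992), GABPA and COMMD3 for TIA1 (0.999 and 0.999) and TRAF3IP2 and GSTM4 for TIAL1 (0.984 and 0.981). None of these 14 genes had an edgeR adjusted p below 0.05, and the lowest was 0.062, for COPRS. With so many genes compared over 6 points, values near 1 are easily reached.

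**Figure D4:**
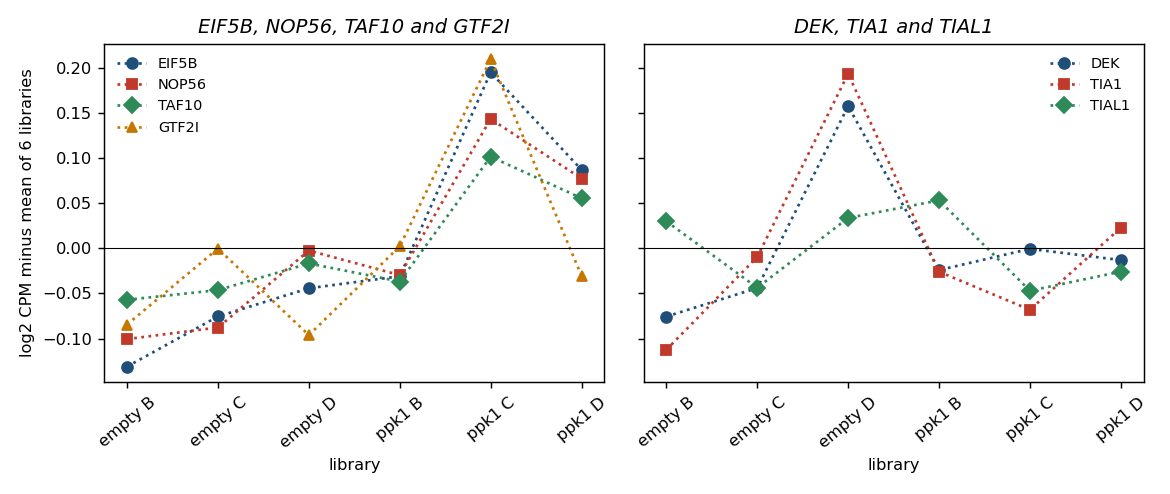
Log2 CPM of each gene minus its mean over the 6 libraries, by library (dotted lines only guide the eye). EIF5B, NOP56, TAF10 and GTF2I peak in ppk1 library C, and DEK and TIA1 peak in empty vector library D.

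The promoters of 5 members are shown, 3 with the first kind of profile and 2 with the second. Whether promoter sequence has a part in these profiles was not tested. RefSeq windows of 250 bases before to 50 bases after the transcript start (build GRCh38.p14) were matched for 6 of the 7 members, all but GTF2I. Capitals mark matches, on either strand, to 7 motifs: EGR (GCGTGGGCG or GCGGGGGCG), NRF1 (GCGC, any base, then TGCGC), YY1 (GCCATNTTG), the CCAAT box (CCAAT), the cyclic AMP response element (TGACGTCA), the E-box (CACGTG) and ETS (CCGGAAG). No 2 different motifs overlapped in these windows. For TIA1 the second of 2 overlapping windows is given.
EIF5B, chr2:99337139-99337438, plus strand: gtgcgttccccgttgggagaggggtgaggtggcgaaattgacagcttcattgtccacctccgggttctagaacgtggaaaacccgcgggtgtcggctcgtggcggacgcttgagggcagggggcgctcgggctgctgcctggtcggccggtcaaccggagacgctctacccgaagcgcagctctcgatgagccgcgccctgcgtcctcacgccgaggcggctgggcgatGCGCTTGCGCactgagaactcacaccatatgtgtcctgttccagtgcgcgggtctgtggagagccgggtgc
NOP56, chr20:2652382-2652681, plus strand: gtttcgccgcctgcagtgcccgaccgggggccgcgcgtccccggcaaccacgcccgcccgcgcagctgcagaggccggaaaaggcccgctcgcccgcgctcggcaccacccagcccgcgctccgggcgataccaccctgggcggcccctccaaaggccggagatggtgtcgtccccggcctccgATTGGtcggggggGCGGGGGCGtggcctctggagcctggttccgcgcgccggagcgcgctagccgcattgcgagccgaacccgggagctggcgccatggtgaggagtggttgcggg
TAF10, chr11:6612167-6612466, minus strand: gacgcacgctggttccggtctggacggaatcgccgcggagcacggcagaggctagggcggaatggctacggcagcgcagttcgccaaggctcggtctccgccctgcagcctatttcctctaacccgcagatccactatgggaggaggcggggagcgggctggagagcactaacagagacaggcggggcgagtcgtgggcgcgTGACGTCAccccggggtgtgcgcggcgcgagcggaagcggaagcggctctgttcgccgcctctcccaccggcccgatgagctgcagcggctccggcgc
DEK, chr6:18264481-18264780, minus strand: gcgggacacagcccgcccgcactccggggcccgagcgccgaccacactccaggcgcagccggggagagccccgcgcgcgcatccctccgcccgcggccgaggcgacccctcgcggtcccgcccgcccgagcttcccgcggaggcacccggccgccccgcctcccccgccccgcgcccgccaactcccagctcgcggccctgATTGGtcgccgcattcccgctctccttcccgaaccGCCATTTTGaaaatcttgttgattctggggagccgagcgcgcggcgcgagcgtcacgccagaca
TIA1, chr2:70248579-70248878, minus strand: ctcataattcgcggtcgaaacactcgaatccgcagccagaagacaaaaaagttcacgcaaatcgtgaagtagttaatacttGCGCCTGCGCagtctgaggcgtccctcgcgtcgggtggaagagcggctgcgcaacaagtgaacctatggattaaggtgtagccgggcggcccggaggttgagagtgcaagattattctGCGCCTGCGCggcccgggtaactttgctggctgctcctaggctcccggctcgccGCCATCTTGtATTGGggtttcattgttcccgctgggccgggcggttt

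DEK and the printed window of TIA1 both held a YY1 match and a CCAAT box. Of the 35116 promoter windows, 2.92% and 34.6% hold these letters. The first window of TIA1, not printed, held neither of these motifs and only an NRF1 match. The NRF1 motif occurred in EIF5B and TIA1, which have different profiles, and in 5.78% of windows. EIF5B, NOP56 and TAF10 had no motif of the 7 in common. TAF10 held the cyclic AMP response element (1.85% of windows). NOP56 held an EGR match, 5.77% of windows, and a CCAAT box. The window of TIAL1 held none of the 7 motifs. The EGR motif is bound by EGR1, among other factors. Of the 1499 tested genes whose window holds an EGR match, 8.21% were called, against 9.76% of the 12529 tested genes with any window in the table. By direction, 5.20% of the genes with an EGR match were called higher and 3.00% lower, against 4.37% and 5.39% of the genes with any window. The difference between these shares was not tested. The median log2 fold change of the genes with an EGR match was 0.03, against 0.02. Such shares varied by motif. Of genes with an E-box, 6.15% were called higher and 4.71% lower. Of those with the cyclic AMP response element, 3.63% were called higher and 8.12% lower. The motifs were picked with the promoters in view, and a match is not a binding site.

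Genes that work with each member were mostly not called either. In all, 122 partners were listed by known function and all 122 were tested. With edgeR, 6 (4.92%) were called, all higher with ppk1. Of all tested genes 9.08% were called, 4.04% higher and 5.04% lower. Of genes in the members' range of abundance 7.65% were called, 5.50% higher and 2.15% lower. The share of partners called higher was thus near these shares. The median log2 fold change was 0.09, and 89 of the 122 values were positive. Among all tested genes the median was 0.01, with 10394 of 19574 positive, and for genes in the members' range of abundance it was 0.05, with 66.4% positive. Without the replicate block 0 of the 122 were called (23 at an unadjusted p below 0.05), and without replicate C also 0 (4 at an unadjusted p below 0.05). DESeq2 called 3, beside 4.40% of its genes. Offsets for GC content and transcript length gave 20 higher and 2 lower. With these offsets 2801 genes were called, and 19463 genes had a GC content and length. How those 2801 divide by direction is not given here, so the 20 and 2 have no background beside them.

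Around TAF10, 0 of 15 other TFIID genes were called by edgeR (2 at an unadjusted p below 0.05, and 0 by DESeq2), with a median of 0.03. TAF8, the histone-fold partner of TAF10 in TFIID, was at 38.9 ± 1.02 and 40.1 ± 1.95 CPM, and TAF3 was at 31.5 ± 0.80 and 30.9 ± 3.19 CPM (mean ± SD, n = 3). Of 19 genes of SAGA and related coactivators, 2 were called higher, with a list median of 0.08. TAF6L, a SAGA relative of the TFIID subunit TAF6, rose from 24.7 ± 0.77 to 31.1 ± 3.65 CPM (log2 fold change 0.32, SE 0.08, edgeR adjusted p 0.0061). ATXN7L3, an adaptor of the SAGA deubiquitinase, rose from 81.8 ± 7.38 to 99.7 ± 7.39 CPM (0.29, SE 0.08, adjusted p 0.0094). Both were higher in 3 of 3 pairs, and DESeq2 also called these 2.

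Around NOP56, 0 of 11 box C/D proteins and assembly factors were called by edgeR (3 at an unadjusted p below 0.05, and 0 by DESeq2), with a median of 0.09. NOP58, which pairs with NOP56 in the particle, was at 281.4 ± 37.3 and 280.3 ± 10.4 CPM, and FBL, its methyltransferase, at 315.4 ± 50.1 and 336.0 ± 21.4 CPM (mean ± SD, n = 3). The pair values of FBL ran from -0.23 in B to 0.41 in D, a wider spread than for NOP56. Around EIF5B, 1 of 22 initiation factors was called, EIF6, which keeps the large ribosomal subunit from joining too early. EIF6 rose from 75.5 ± 2.97 to 88.4 ± 6.65 CPM (log2 fold change 0.23, SE 0.07, edgeR adjusted p 0.046). It was not called by DESeq2 (adjusted p 0.069), which called 0 of the 22, nor by edgeR with RLE scaling (0.053), upper-quartile scaling (0.075), no filter on low counts (0.071) or a mean of at least 50 counts (0.054). The median of the 22 was 0.03. EIF1AX, whose protein binds EIF5B, was at 270.7 ± 33.0 and 296.1 ± 23.2 CPM, a log2 fold change of 0.13 with an adjusted p of 0.28.

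Around TIA1 and TIAL1, 3 of 28 stress granule and AU-rich element binding genes were called, all higher, with a median of 0.09. DESeq2 called 1 of the 28, RBM3. RBM3, a cold-induced RNA-binding protein, rose from 219.8 ± 6.62 to 266.1 ± 37.3 CPM (log2 fold change 0.27, SE 0.08, edgeR adjusted p 0.016), and KHSRP, which promotes decay of messages with AU-rich elements, from 550.6 ± 53.0 to 652.3 ± 75.4 CPM (0.24, adjusted p 0.037). KHSRP had an adjusted p of 0.052 in DESeq2, and in edgeR 0.067 with upper-quartile scaling and 0.057 with a mean of at least 50 counts. G3BP1, a core protein of stress granules, was at 254.4 ± 17.4 and 289.3 ± 19.0 CPM, with an adjusted p of 0.11. Among the 6 called partners, each lost the call without the block (adjusted p from 0.077 to 0.20) and without replicate C (0.27 to 0.67).

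Around GTF2I, 0 of 3 other genes of its family were called (0 at an unadjusted p below 0.05 in edgeR and 0 in DESeq2, which gave an adjusted p for 2 of them). GTF2IRD1 was at 38.7 ± 3.49 and 37.5 ± 1.16 CPM (mean ± SD, n = 3). Around DEK, 0 of 24 histone chaperone and chromatin protein genes were called by edgeR (5 at an unadjusted p below 0.05, and 0 by DESeq2), with a median of 0.12. SET, a histone chaperone, was at 776.6 ± 29.1 and 845.7 ± 48.4 CPM, a log2 fold change of 0.12 with an adjusted p of 0.34.

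**Figure D5:**
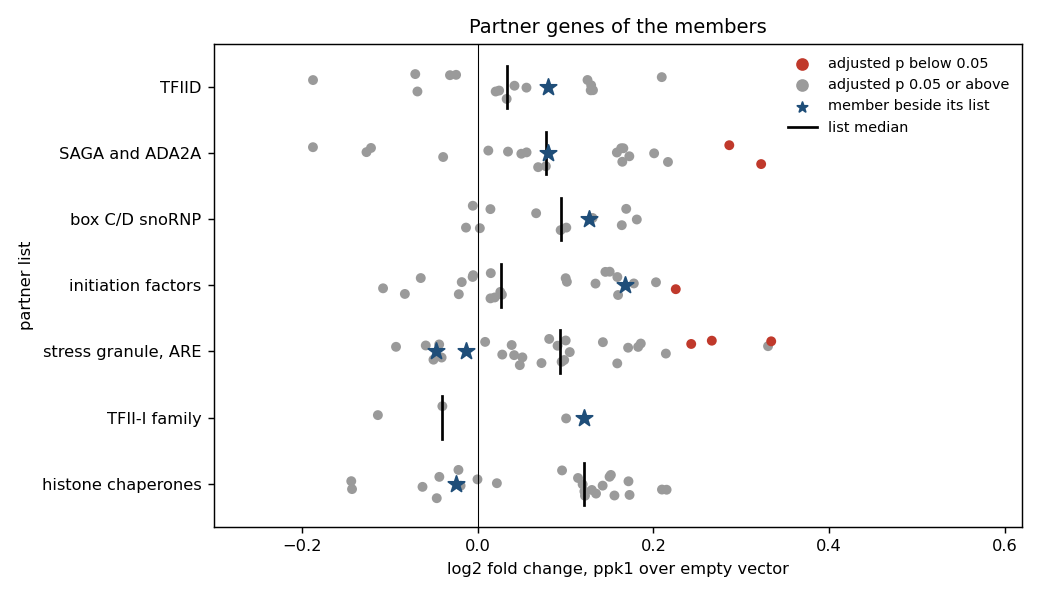
Log2 fold change, ppk1 over empty vector, of each of the 122 partner genes by list. Red points have an adjusted p below 0.05, black bars are list medians and stars are the members placed beside their partners. The 6 red points all lie above 0, and no star lies as far from 0.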

How the data were processed

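Whole-number counts per Ensembl gene, deposited by the authors as 1 table, were used as raw counts. All 6 columns matched a sample by title, and 0 other columns held sample values. The submitters' processing notes name bcl2fastq 2.20, Trimmomatic, STAR, HTSeq, edgeR, DESeq, Cufflinks and Cuffdiff without roles. Genome build, annotation, strand setting and treatment of multiply mapped reads are not given in the sources used here, so the only positions printed are those of RefSeq promoter windows (GRCh38.p14), and chromosomes are those of GENCODE release 29. Poly(A) selection and a directional kit were used, per the labels' protocols.

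Genes were filtered with filterByExpr (minimum count 10), scaled by TMM and tested with edgeR 4.0.16 (glmQLFit, glmQLFTest) in R 4.3.3, with the replicate letter as a block and Benjamini-Hochberg adjustment over all 19574 genes. DESeq2 1.42.0 was an alternative. The block follows the design text, which calls same-letter libraries matched. Same-letter deviations from group means correlated at 0.109 (B), 0.135 (C) and 0.0476 (D) across genes. P-values rest on the spread between the 3 pairs as pooled largely over all tested genes, not on each gene's own pairs alone. The pooled part had a weight of 47.5 degrees of freedom. CPM is counts over the TMM-scaled total, with a prior count of 2 on the log2 scale. SE is the absolute log2 fold change over the square root of F. The code was tested on simulated data.

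Members and lists were chosen with earlier results of these data known. The rule for naming partners took up to 4 called genes per list with the smallest adjusted p, 8 fixed partners, tested pseudogene copies and the 2 most similar profiles per member. Types, lengths and shared sequence came from GENCODE release 29, which held 98.96% of identifiers. A planned search of the member proteins for acidic, serine and lysine-rich stretches was not done, since protein sequences were not used here. The result of 1 called partner gene is not reported here.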

Additional observations from a re-analysis of the deposited data

How the results depend on the processing

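Under the 13 alternatives run for every member, EIF5B, NOP56, GTF2I and TAF10 kept their positive direction. Offsets for GC content and transcript length, with the replicate block, called 1 member in place of 0 (EIF5B, 0.23) and 2801 genes in all in place of 1777. They also turned the sign of DEK (0.0177), TIA1 (0.0186) and TIAL1 (0.0391), none of them called. The fit with no replicate block called 470 genes and 0 members, with EIF5B at 0.17, and DESeq2 called 755 genes and 0 members. Leaving out a replicate pair gave between 406 (without C) and 2435 (without B) called genes, 0 members, and values for DEK between -0.0646 and 0.0262. The cause was not tested. With 2171 or more counts per member and library, depth limits these members less than the spread between 3 pairs does. Other thresholds for the protein stretches were not run, as that search was not done. The sum of GTF2I with GTF2IP1 and GTF2IP4 was chosen after seeing the data.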
